A study of Caenorhabditis elegans with 14 samples.

Results

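The linker histone genes hil-1 to hil-7 of the nematode Caenorhabditis elegans were followed across XO hermaphrodites and XX males at 2 stages. All 7 were taken by name from a table of 20411 genes. hil-7 was chosen by its difference between XO hermaphrodites and XX males at L3, the third of the larval stages. The others were taken as genes of the same numbered family, in which hil-8 was not taken. The L3 levels of hil-7, and its differences that include them, are therefore descriptions without a test. The hermaphrodites were strain TY2205, with 1 X chromosome, and the males were strain CB5362, with 2 X chromosomes, so that sex and X number are the reverse of those in wild-type worms. Per textbook knowledge of the strains, both carry a mutation of xol-1, TY2205 also carries mutations of her-1 and sdc-3, and CB5362 carries one of tra-2. The labels give no alleles. Young adults were 3 libraries of XO hermaphrodites and 4 of XX males, grown for 44 h at 25 °C. L3 larvae were 3 libraries of XO hermaphrodites and 3 of XX males, grown for 24 h at a temperature the labels do not state. All 13 were poly(A) RNA libraries of whole worms.

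Linker histones, the H1 family, bind the nucleosome where DNA enters and leaves it and help to fold nucleosomes into compact chromatin. Animals carry several variants that differ in amount between cell types and stages. In C. elegans the family consists of the hil genes and his-24, whose product is known for its role in silencing in the germline. The product of hil-1, called H1.X, has been described in the cytoplasm of a small set of cells that includes cells of the pharynx, the feeding organ. For the other members no single role is stated here.

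In the deposited table hil-1, hil-4 and hil-6 lie on chromosome V, hil-2 and hil-7 on chromosome IV, hil-5 on chromosome I and hil-3 on chromosome X, as does his-24. Their identifiers run in order from WBGene00001852 for hil-1 to WBGene00001858 for hil-7, and his-24 is WBGene00001898. Values are FPKM, fragments scaled by transcript length and library size, so levels can be set side by side between genes. Reads shared between near-identical copies were not examined. In the reference annotation hil-2 overlaps 1 miRNA gene on its own strand and his-24 overlaps 2 noncoding genes on the other strand, and how the authors counted such overlaps is not stated.

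The libraries differed in ways that touch these genes. The FPKM of all genes summed to between 916127 and 940071 in XO young adults, 1159056 and 1298816 in XX young adults, 1317414 and 1574087 in XO L3 larvae, and 1216741 and 1289639 in XX L3 larvae. Relative depth, read from the spacing of low values with XX young adult replicate 1 set to 1, was 0.62 to 1.45 in young adults and 0.224 to 0.92 at L3. The typical SD of a gene was 0.18 and 0.20 on the log2 scale in XO and XX young adults and 0.36 and 0.35 in XO and XX L3 larvae. At L3, XO replicate 1 had Spearman correlations of 0.943 and 0.927 with XX replicates 2 and 3, against 0.907 and 0.917 within its own group. XX L3 replicate 1 had correlations of 0.673 to 0.724 with XX young adults, against 0.497 to 0.556 for XX L3 replicates 2 and 3. Summed sperm marker genes ran from 3.47 to 317 FPKM in XX L3 larvae and from 3.49 to 10.4 FPKM in XO L3 larvae. Summed marker genes of male tail and male neurons ran from 35.4 to 149 FPKM in XX L3 larvae and from 1.47 to 4.08 FPKM in XO L3 larvae. Whether the XX L3 libraries differed in stage was not tested. Of the mutated genes, xol-1 was listed at 0 in all 13 libraries, and sdc-3 was between 0.240 and 0.416 FPKM in XO libraries and between 1.32 and 5.31 FPKM in XX libraries. her-1 was between 9.83 and 42.7 FPKM in XO libraries and between 0.401 and 1.69 FPKM in XX libraries. tra-2 was between 7.25 and 38.5 FPKM in XO libraries and between 14.9 and 19.5 FPKM in XX libraries. Strain, sex and X number differ together in each comparison of animals and cannot be told apart. In whole worms, fewer cells of a type and less RNA per cell cannot be told apart either.

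The members spanned more than 2 orders of magnitude. In XO young adults hil-5 averaged 539 ± 63.0 FPKM and hil-4 500.2 ± 28.2 FPKM (SD, n = 3), and these neighbours overlapped between libraries. They were followed by hil-2 at 172 ± 27.2 FPKM and hil-3 at 40.9 ± 16.02 FPKM. Then came hil-7 at 16.7 ± 5.99 FPKM and hil-1 at 3.08 ± 0.888 FPKM, with hil-6 between 1.82 and 4.82 FPKM. In XX young adults the order at the top was alike, with hil-5 at 168 ± 27.2 FPKM and hil-4 at 138 ± 24.8 FPKM (SD, n = 4), again with overlapping libraries. In XO L3 larvae hil-2 averaged 229 ± 75.9 FPKM, and hil-5 at 124 ± 48.8 FPKM, hil-7 at 97.3 ± 5.58 FPKM, hil-3 at 93.2 ± 9.76 FPKM and hil-4 at 91.7 ± 41.2 FPKM overlapped with one another (SD, n = 3). In XX L3 larvae hil-5 at 184 ± 23.7 FPKM, hil-2 at 172 ± 59.6 FPKM and hil-3 at 151 ± 76.6 FPKM overlapped, whereas hil-7 averaged 15.9 ± 0.736 FPKM (SD, n = 3). For scale, his-24 averaged 141.8 ± 40.2 FPKM in XO young adults, 139.6 ± 36.5 FPKM in XX young adults, 307 ± 27.8 FPKM in XO L3 larvae and 368 ± 115 FPKM in XX L3 larvae.

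**Figure D1:**
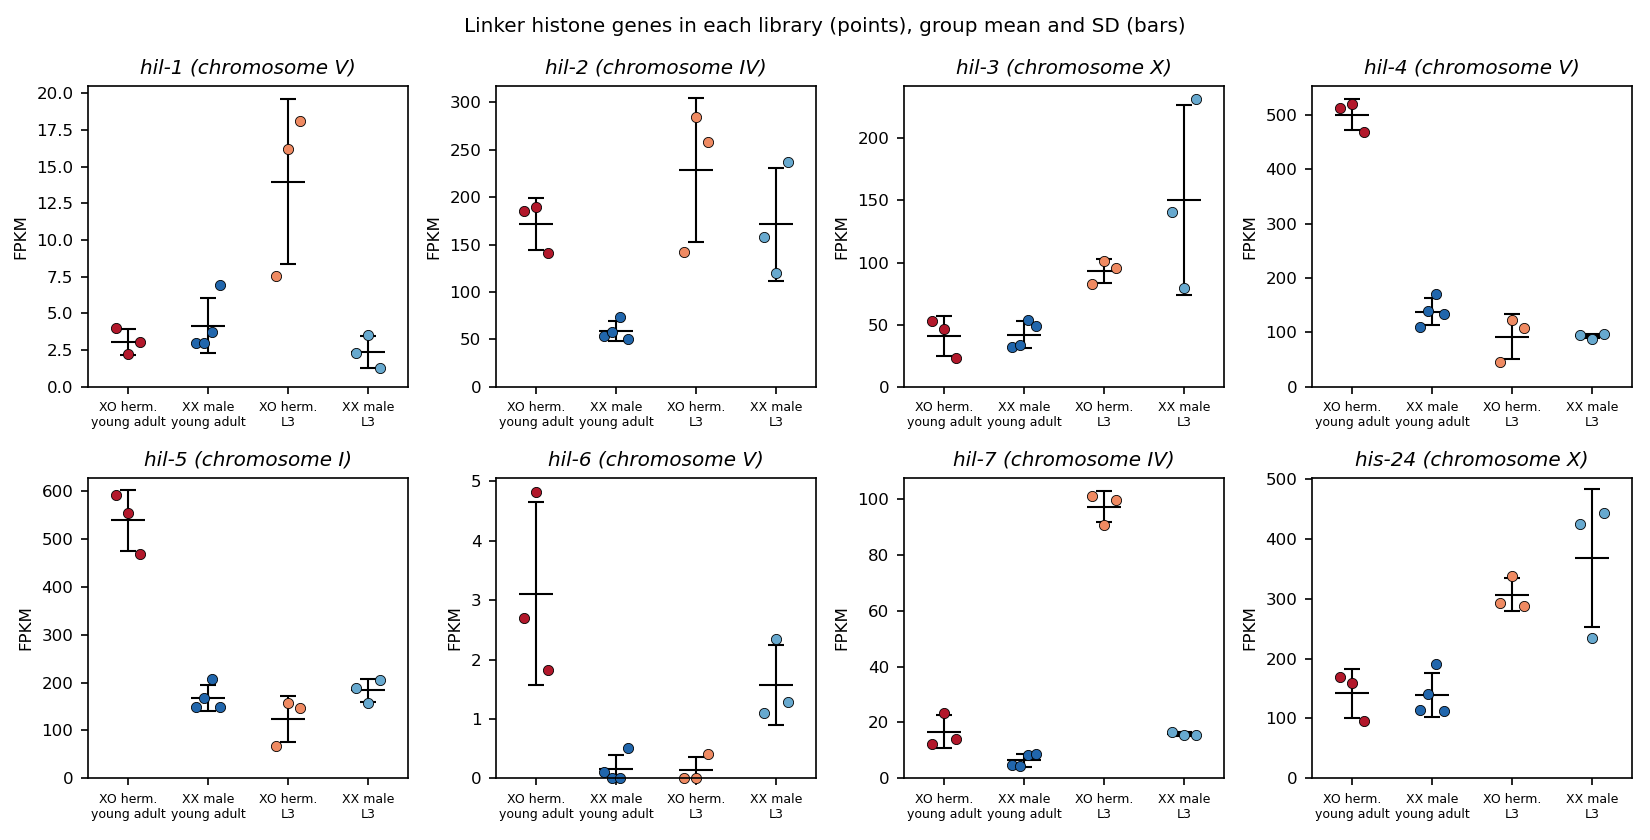
FPKM of each member and of his-24 in every library (points), with the mean and SD of each group (bars), for XO young adults, XX young adults, XO L3 larvae and XX L3 larvae. The 3 XO L3 libraries of hil-7 sit between 90.9 and 101 FPKM, and hil-4 and hil-5 stand highest in XO young adults.

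The first comparison asked how the members differ between XO hermaphrodites and XX males in young adults. Of the 7 members 5, namely hil-2, hil-4, hil-5, hil-6 and hil-7, were higher in XO hermaphrodites and 0 were lower, also at an unadjusted p under 0.05 in limma. For 4 of them the mean FPKM was 2.58 to 3.62 times that of XX males, and for hil-6 several XX values were listed at 0. The remaining members hil-1 and hil-3, and his-24, did not pass the test. The test was limma on log2(FPKM + 1) with 4 group means over the 13 libraries, with Benjamini-Hochberg adjustment over 14628 genes and a threshold of 0.05. Of all genes tested 33.9% were higher and 33.3% lower in this comparison. The median difference was 1.53 over the 7 members and -0.11 over all genes, on the log2 scale. The members were chosen with earlier results known, and hil-6 passed the minimum mean of 1 FPKM mainly through XO young adults, so that filter favoured its place in the count, which is 4 without it.

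The most abundant pair moved most in FPKM. hil-4 had 513, 520.1 and 468 FPKM in the XO young adult libraries, against 109, 139.7, 169.9 and 134 FPKM in those of XX males. All 3 XO values lay far above all 4 XX values. The log2 difference was 1.86 ± 0.28 (SE; limma adjusted p = 7.4e-05). hil-5 had 593, 555 and 469.8 FPKM in XO hermaphrodites, against 149, 167, 207 and 149 FPKM in XX males. Its groups were also fully apart, with a log2 difference of 1.68 ± 0.26 (SE; limma adjusted p = 8.2e-05). The ratio of hil-4 to hil-5 was 0.933 ± 0.0657 in XO young adults and 0.822 ± 0.0684 in XX young adults (SD, n = 3 and 4), so the pair stood at similar levels in each kind of adult.

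hil-2, the third in abundance, had 185, 189.9 and 141 FPKM in XO young adults, against 53.7, 58.2, 73.7 and 50.1 FPKM in XX young adults. The lowest XO library was well above the highest XX library, and the log2 difference was 1.53 ± 0.27 (SE; limma adjusted p = 2.9e-04). hil-7, whose young adult libraries had no part in its choice, had 12.5, 23.6 and 14.1 FPKM in XO hermaphrodites, against 4.68, 4.34, 8.35 and 8.54 FPKM in XX males. The groups did not overlap, and the log2 difference was 1.25 ± 0.26 (SE; limma adjusted p = 8.5e-04). Because that error draws on the spread of all 13 libraries, the L3 ones included, the 7 young adult libraries were also fitted alone, which gave limma adjusted p = 0.00524. hil-6 was near the detection limit, with 2.69, 4.82 and 1.82 FPKM in XO hermaphrodites, against 0.107 and 0.513 FPKM in XX males of replicates 1 and 4 and a listing at 0 in replicates 2 and 3. The log2 difference of hil-6 was 1.79 ± 0.27 (SE; limma adjusted p = 7.7e-05), a value that depends on the added pseudocount of 1 and was 3.98 with a pseudocount of 0.1. With no minimum level, and so with no filter that hil-6 could pass through its XO young adult values, the adjusted p was 9.2e-05.

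The remaining members overlapped between the animals. hil-1 had 3.99, 2.22 and 3.04 FPKM in XO hermaphrodites, against 3.001, 2.99, 3.75 and 6.91 FPKM in XX males. Its log2 difference was -0.30 with a 95% interval of -1.05 to 0.45 (limma adjusted p = 0.461). hil-3, which lies on the X chromosome, had 53.1, 46.8 and 22.8 FPKM in XO hermaphrodites, against 31.8, 33.4, 53.5 and 48.9 FPKM in XX males. Its log2 difference was -0.08 with a 95% interval of -0.86 to 0.69 (limma adjusted p = 0.85), and its sign changed with the scaling of the libraries, being 0.32 when all were set to a common FPKM sum. The interval of his-24, the other X-linked linker histone gene, ran from -0.58 to 0.60 around a difference of 0.01 (limma adjusted p = 0.973).

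An exact two-sided permutation test over the 35 splits of the 7 young adult libraries cannot go below p = 0.0571. It gave that value for hil-2, hil-4, hil-5, hil-6 and hil-7, and 0.571 for hil-1, 0.857 for hil-3 and 0.971 for his-24. Markers of reproductive cells also differed between these libraries, in both directions. The summed FPKM of 9 oocyte markers was 4550.1 to 5402 in XO young adults and 108 to 139 in XX young adults, with 9 of 9 higher. The 8 markers of mitotic and meiotic germline summed to 949 to 1045 FPKM in XO young adults and 298 to 358 FPKM in XX young adults, with 6 of 8 higher. The 8 sperm markers summed to 68.0 to 371 FPKM in XO young adults and 4729 to 6313 FPKM in XX young adults, with 8 of 8 lower. Embryo markers summed to 5.34 to 10.6 FPKM in XO young adults and 0.810 to 1.77 FPKM in XX young adults, and none of the 8 had the mean level required for the test. Markers of body wall muscle, pharynx and intestine were lower for 4 of 5 genes each. Neuron markers were lower for 3 of 5 genes, and hypodermis markers were lower for 2 and higher for 1 of 5. Male tail and male neuron markers were lower for all 4 tested. The part of these cell types in the higher hil levels was not tested.

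**Figure D2:**
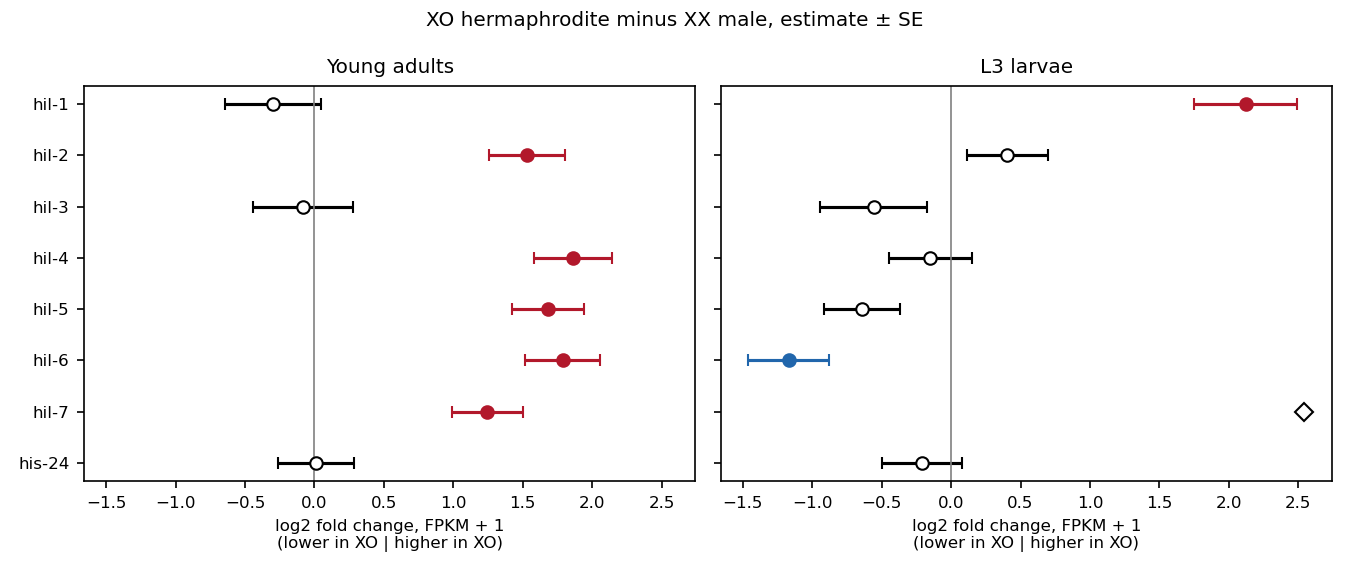
Difference between XO hermaphrodites and XX males in log2(FPKM + 1), estimate ± SE, for each member and his-24 in young adults (left) and L3 larvae (right); values right of zero are higher in XO hermaphrodites, filled points passed limma at 0.05, open circles did not, and the open diamond of hil-7 at L3 carries no test. In young adults hil-2, hil-4, hil-5, hil-6 and hil-7 lie right of zero between 1.25 and 1.86, and at L3 only hil-1, among the tested members, is filled on that side.

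At L3 the same comparison of animals looked different. Of the 6 members tested, hil-1 was higher in XO hermaphrodites, hil-6 was lower, and hil-2, hil-3, hil-4 and hil-5 did not pass limma. Among all genes tested 1.26% were higher and 4.31% lower at this stage. The median over the 6 members was -0.35 against -0.25 over all genes, on the log2 scale. Both calls rest on the spread estimated over all 13 libraries, since a fit to the 6 L3 libraries alone gave limma adjusted p = 0.273 for hil-1 and 0.278 for hil-6.

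hil-7 was selected on its L3 values, so the following is a description. It had 101, 90.9 and 99.6 FPKM in XO L3 larvae, against 16.7, 15.3 and 15.5 FPKM in XX L3 larvae. Within each kind of larva the libraries were close together, and the difference was 6.13-fold in mean FPKM and 2.54 on the log2 scale. XO L3 larvae had the highest hil-7 level of the 4 groups. XX L3 larvae and XO young adults overlapped at 15.9 ± 0.736 and 16.7 ± 5.99 FPKM (SD, n = 3 each), and XX young adults were lowest at 6.48 ± 2.27 FPKM (SD, n = 4). The L3 difference was 2.51 without XO replicate 1 and 2.58 without XX replicate 1, the libraries that stood apart. These values come from the libraries that chose hil-7 and are no check on its difference.

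hil-1 had 7.58, 16.2 and 18.1 FPKM in XO L3 larvae, against 2.32, 3.495 and 1.29 FPKM in XX L3 larvae. Its groups did not overlap, although XO replicate 1 was less than 0.5 times the other XO values. Its mean was 5.89 times higher in XO larvae, and the log2 difference was 2.12 ± 0.37 (SE; limma adjusted p = 0.00841). Without XO replicate 1 it was 2.48 (limma adjusted p = 4.8e-04), and without XX replicate 1 it was 2.14 (limma adjusted p = 0.0289). The 5 pharynx markers summed to 232 to 329 FPKM in XO L3 larvae and 249.9 to 313 FPKM in XX L3 larvae. Of these 0 of 5 passed limma, with 1 higher and 0 lower at an unadjusted p under 0.05. Their median log2 difference was -0.10, against -0.25 over all genes.

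hil-6 was listed at 0 in XO L3 replicates 1 and 2 and had 0.403 FPKM in replicate 3, against 1.098, 2.34 and 1.28 FPKM in XX L3 larvae. All 6 values are low, and XX larvae were above XO larvae in every library. The 2 XO libraries at 0 had the lowest relative depths of all, 0.224 and 0.228. XO replicate 3 had 0.796, and XX L3 larvae had 0.275 to 0.92. The log2 difference of hil-6 was -1.17 ± 0.29 (SE; limma adjusted p = 0.0374). That call was lost without any 1 of XO replicates 2 and 3 and XX replicates 1, 2 and 3, with limma adjusted p between 0.0559 and 0.136 and differences between -1.33 and -0.97. The 8 germline markers summed to 81.3 to 157 FPKM in XO L3 larvae and 202 to 303 FPKM in XX L3 larvae, with 5 of 8 lower, and their part in the hil-6 value was not tested.

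The other members had wide intervals at L3. hil-2 had 142.3, 285 and 259 FPKM in XO larvae and 158, 120.1 and 237 FPKM in XX larvae, with a 95% interval of the log2 difference of -0.23 to 1.04 (limma adjusted p = 0.37). hil-3 had 82.5, 102 and 95.6 FPKM in XO larvae and 141, 79.3 and 232 FPKM in XX larvae, with an interval of -1.39 to 0.27 (limma adjusted p = 0.346). The groups of both genes overlapped. hil-4 had 44.9, 122 and 108 FPKM in XO larvae and 95.1, 88.7 and 96.7 FPKM in XX larvae, with an interval of -0.80 to 0.50 (limma adjusted p = 0.774). XO replicate 1 alone was below the XX larvae for hil-4, and without it the difference was 0.30, with its sign turned. hil-5 had 68.2, 157 and 148 FPKM in XO larvae and 188, 158 and 205 FPKM in XX larvae. Every XO value of hil-5 was below every XX value, the difference was -0.64 ± 0.27 (SE; limma adjusted p = 0.155), and it passed the threshold only under a common FPKM sum (-0.88, limma adjusted p = 0.0363).

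Stage was compared within each kind of animal. In XO hermaphrodites hil-4, hil-5 and hil-6 were higher in young adults than in L3 larvae, hil-1 and hil-3 were lower, and hil-2 did not pass limma. This is 5 of 6 tested members, or 4 without hil-6, which met the minimum mean mainly through XO young adults, with 33.7% of all genes higher and 28.5% lower. In XX males 0 were higher, also at an unadjusted p under 0.05, hil-2, hil-3 and hil-6 were lower, and hil-1, hil-4 and hil-5 did not pass, with 21.7% of all genes higher and 28.5% lower. Medians over the 6 members were 0.73 in XO and -0.64 in XX animals, against 0.13 and -0.21 over all genes, on the log2 scale. Growth time differs with stage and temperature may, and these cannot be told apart from stage.

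The abundant pair hil-4 and hil-5 rose in XO young adults. Mean hil-4 was 5.45 times higher in XO young adults than in XO L3 larvae, a log2 difference of 2.56 ± 0.30 (SE; limma adjusted p = 1.2e-05), and mean hil-5 was 4.34 times higher, 2.19 ± 0.27 (SE; limma adjusted p = 2.1e-05). Without XO L3 replicate 1 these were 2.11 and 1.81, and both passed. In XX males the hil-4 difference was 0.54 with a 95% interval of -0.07 to 1.15 (limma adjusted p = 0.127). It passed as higher under median ratio scaling (0.93, limma adjusted p = 0.0466) and with only the XX libraries in the fit (limma adjusted p = 0.0294). The hil-5 difference in XX males was -0.13 with an interval of -0.69 to 0.43 (limma adjusted p = 0.698). For hil-4 the XX adults and larvae did not overlap, at 109 to 169.9 FPKM in adults and 88.7 to 96.7 FPKM in larvae. hil-6 was higher by 1.81 ± 0.29 in XO young adults (SE; limma adjusted p = 1.5e-04, and 1.8e-04 with no minimum level) and lower in XX young adults, with a difference of -1.15 ± 0.27 (SE; limma adjusted p = 0.00349).

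The X-linked hil-3 fell in adults of both kinds, with log2 differences of -1.25 ± 0.38 in XO hermaphrodites (SE; limma adjusted p = 0.0126) and -1.72 ± 0.36 in XX males (SE; limma adjusted p = 0.00146). The XO value lost its call without XO young adult replicate 3 (-0.88, limma adjusted p = 0.0629) and under a common FPKM sum (-0.60, limma adjusted p = 0.185). his-24 was likewise lower in adults, with differences of -1.15 ± 0.29 in XO hermaphrodites (SE; limma adjusted p = 0.00418) and -1.37 ± 0.27 in XX males (SE; limma adjusted p = 0.00107). hil-2 was lower in XX young adults, with a difference of -1.49 ± 0.27 (SE; limma adjusted p = 6.2e-04). In XO hermaphrodites the hil-2 difference was -0.36 with a 95% interval of -0.995 to 0.28 (limma adjusted p = 0.301). It passed as lower without XO L3 replicate 1 (-0.67, limma adjusted p = 0.0454), under upper quartile scaling (-1.13, limma adjusted p = 0.0116) and with array weights (-0.50, limma adjusted p = 0.00104), and turned to 0.30 under a common FPKM sum.

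hil-1 was lower in XO young adults, with a log2 difference of -1.81 ± 0.37 (SE; limma adjusted p = 9.7e-04). In XX males its difference was 0.61 with an interval of -0.14 to 1.36 (limma adjusted p = 0.164). hil-7, given without a test, was lower in young adults, with log2 differences of -2.52 in XO hermaphrodites and -1.22 in XX males. Mean hil-7 was 0.172 times the L3 level in XO hermaphrodites and 0.408 times in XX males. Summed pharynx markers were 45.8 to 84.0 FPKM in XO young adults against 232 to 329 FPKM in XO L3 larvae, with 5 of 5 lower, and 146 to 167 FPKM in XX young adults against 249.9 to 313 FPKM in XX L3 larvae, with 3 of 5 lower. Germline markers were 949 to 1045 FPKM in XO young adults against 81.3 to 157 FPKM in XO L3 larvae, with 8 of 8 higher, whereas 1 of 8 was higher in XX young adults. Oocyte markers were higher in adults for 9 of 9 genes in XO hermaphrodites (median log2 difference 6.34) and 7 of 9 in XX males (median 0.87). Sperm markers were higher for 7 of 8 genes in XO hermaphrodites (median 2.62) and 8 of 8 in XX males (median 6.04). Intestine markers were lower for 5 of 5 genes in XO hermaphrodites and 1 of 5 in XX males. Hypodermis markers were lower for 3 of 5 genes and higher for 1 in XO hermaphrodites (median -5.03). In XX males 4 of 5 were lower (median -4.04). Body wall muscle markers were lower for 3 of 5 genes in XO hermaphrodites, with 2 higher and 1 lower in XX males. Neuron markers were lower for 3 of 5 genes in XO hermaphrodites and higher for 1 of 5 in XX males. Male tail and male neuron markers were higher for 2 of 4 tested genes in XX males and 0 in XO hermaphrodites. The part of these in the members' stage differences was not tested.

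**Figure D3:**
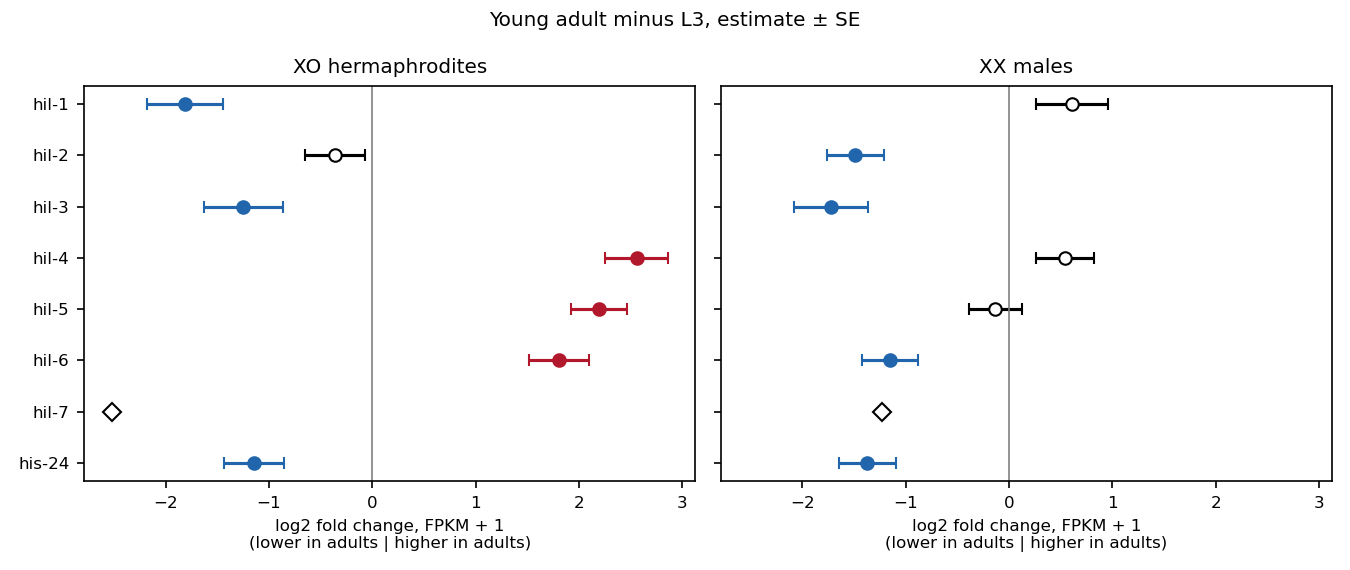
Young adult minus L3 in log2(FPKM + 1), estimate ± SE, for each member and his-24 in XO hermaphrodites (left) and XX males (right); red points passed limma at 0.05 as higher in adults, blue as lower, open circles did not pass, and open diamonds of hil-7 carry no test. hil-4 and hil-5 lie at 2.56 and 2.19 in XO hermaphrodites and at 0.54 and -0.13 in XX males, while hil-3 and his-24 lie left of zero in both.

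The difference between the young adult and L3 comparisons of animals was tested as an interaction. It was above zero for hil-2, hil-4, hil-5 and hil-6, below zero for hil-1, and did not pass for hil-3, with 32.6% of all genes above zero and 23.9% below. The median was 1.57 over the 6 members and 0.07 over all genes. The interaction was 2.01 ± 0.41 for hil-4 (SE; limma adjusted p = 0.00123), 2.32 ± 0.38 for hil-5 (SE; limma adjusted p = 2.3e-04) and 2.96 ± 0.40 for hil-6 (SE; limma adjusted p = 5.7e-05). Because hil-6 met the minimum mean mainly through XO young adults, that filter favoured its place among the members above zero. Its limma adjusted p was at most 2.7e-04 over 24 alternatives, a fit with no minimum level included. For hil-1 the interaction was -2.42 ± 0.51 (SE; limma adjusted p = 0.00146), though its L3 difference did not pass in the L3 libraries alone (limma adjusted p = 0.273). For hil-2 it was 1.13 ± 0.40 (SE; limma adjusted p = 0.0295), a call lost without any 1 of 6 libraries, namely XO young adult replicates 1 and 2, XX young adult replicates 1 and 4, XO L3 replicate 1 and XX L3 replicate 3 (0.82 to 1.09, limma adjusted p 0.0521 to 0.0766 over all of these). The hil-2 call was also lost under upper quartile scaling (0.43, limma adjusted p = 0.451) and median ratio scaling (0.85, limma adjusted p = 0.143). For hil-3 it was 0.48 ± 0.52 (SE; limma adjusted p = 0.463) and turned to -0.21 under upper quartile scaling. his-24 gave 0.22 ± 0.40 (SE; limma adjusted p = 0.659), and hil-7, without a test, -1.30.

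The summed FPKM of the 7 members was 1275 ± 135 in XO young adults, 418 ± 69.5 in XX young adults, 649 ± 177 in XO L3 larvae and 619 ± 161 in XX L3 larvae (SD, n = 3, 4, 3 and 3). With his-24 the sums were 1417 ± 175, 558 ± 105, 956 ± 193 and 987 ± 267 FPKM in the same order of groups. The make-up of the 8-gene sum changed with stage and animal. hil-4 made up 35.5% of it in XO young adults, 24.8% in XX young adults, 9.23% in XO L3 larvae and 9.91% in XX L3 larvae, and hil-5 made up 38.1%, 30.3%, 12.6% and 19.2%. his-24 made up 9.86% in XO young adults, 24.8% in XX young adults, 32.8% in XO L3 larvae and 37.0% in XX L3 larvae, so that it was the largest single share in larvae. hil-7 made up 8.18 to 13.7% in the XO L3 libraries and 1.26 to 2.19% in the XX L3 libraries, against group means of 1.18% in XO and 1.16% in XX young adults. hil-2 made up 12.1% in XO young adults, 10.6% in XX young adults, 23.4% in XO L3 larvae and 17.2% in XX L3 larvae. Sums and shares are descriptions with no test, and they count transcripts, not protein.

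**Figure D4:**
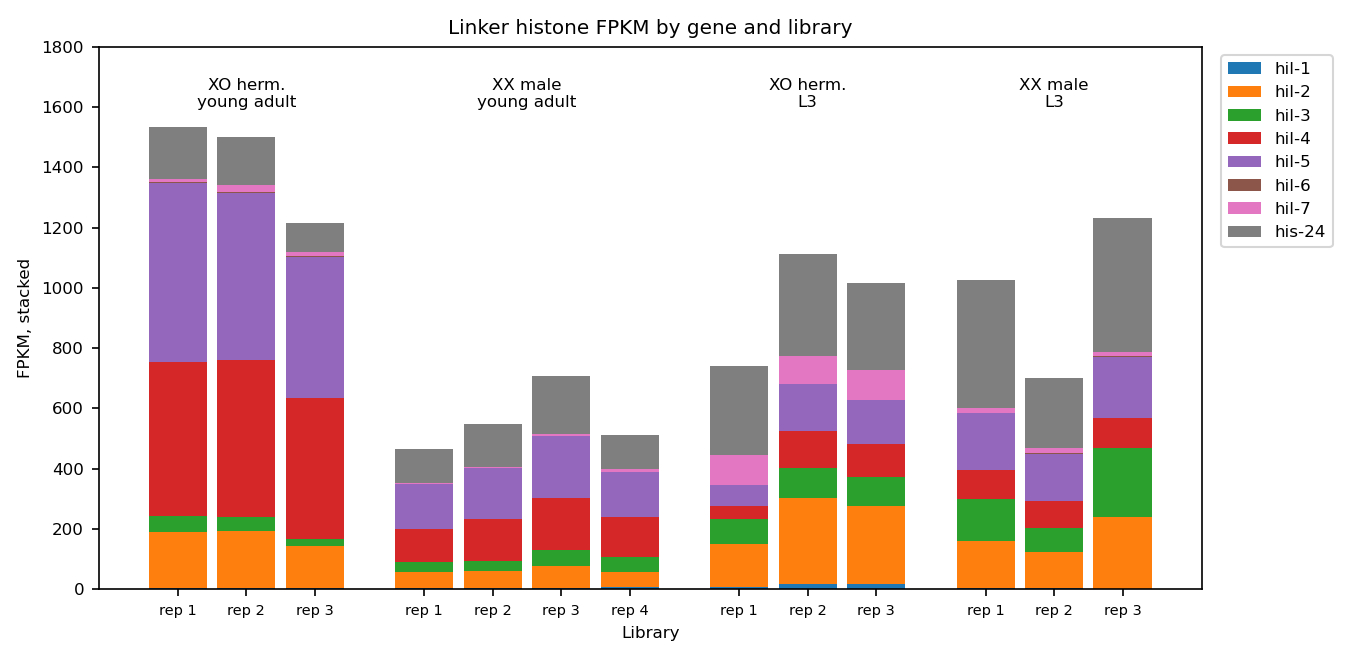
Stacked FPKM of the 7 members and his-24 in each library, grouped as XO young adults, XX young adults, XO L3 larvae and XX L3 larvae. XO young adults are the tallest, with group means of 1417 FPKM against 558 FPKM in XX young adults, and hil-4 and hil-5 fill most of the difference.

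Ratios within pairs of linker histone genes were also described. The ratio of hil-4 to hil-5 was 0.723 ± 0.0609 in XO L3 larvae and 0.513 ± 0.0453 in XX L3 larvae (SD, n = 3 each), below the young adult ratios given above. Over all 13 libraries the ratio of hil-4 to hil-5 ran from 0.472 to 0.996, and that of hil-3 to his-24 from 0.237 to 0.522. The ratio of hil-2 to his-24 ran from 0.371 to 1.47, and averaged 1.25 in XO young adults and 0.428 in XX young adults.

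For each member the 3 genes most like it, by Pearson correlation of log2(FPKM + 1) over the 13 libraries, were listed as a description. The libraries share groups, so the correlation reflects mainly the order of group means. hil-4 was followed most closely by Y62F5A.12 (0.989), B0304.2 (0.983) and F27C8.6 (0.982), and hil-5 by glh-2 (0.982), which encodes a germline RNA helicase, C13F10.7 (0.979) and K05C4.7 (0.979). hil-2 was closest to fib-1 (0.98), the nucleolar protein fibrillarin, then Y55F3AM.13 (0.979) and Y49F6B.2 (0.976). hil-3 was closest to his-24 (0.953), then F13C5.2 (0.945) and fkb-7 (0.941). hil-6 was closest to mut-15 (0.951), a component of the small RNA machinery, then R05F9.1 (0.933) and hoe-1 (0.925). hil-7 was closest to Y37E11B.1 (0.96), F22E5.13 (0.957) and gpa-15 (0.951), a G protein alpha subunit, all with means below 11 FPKM in every group. hil-1 was closest to Y6E2A.4 (0.896), egl-17 (0.891), a fibroblast growth factor, and F08D12.2 (0.891).

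Genes of 4 other lists were counted beside the members: HMG proteins, variant core histones, histone chaperones and exchange factors, and HP1 proteins with heterochromatin factors. The HMG list includes hmg-5, of the mitochondrial HMG type, so not every listed gene is one of nucleosome packing. Of 34 such genes 33 were tested. In young adults 28 were higher and 3 lower in XO hermaphrodites than in XX males, with a median of 1.42 on the log2 scale, whereas at L3 none was higher and 4 were lower, with a median of -0.42. The zero at L3 comes from the same limma test at 0.05, in which 1 list gene was higher and 13 were lower at an unadjusted p under 0.05. Over stage, 26 were higher and 3 lower in XO young adults, and 5 were higher and 16 lower in XX young adults. Of all genes tested, 33.9% were higher and 33.3% lower in young adults (median -0.11). At L3 1.26% were higher and 4.31% lower (median -0.25). Across stages 33.7% were higher and 28.5% lower in XO hermaphrodites, and 21.7% higher and 28.5% lower in XX males.

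In young adults 6 of 7 HMG genes were higher (median 1.37). The largest were hmg-4, a subunit of the FACT histone chaperone, at 99.4 ± 12.6 FPKM in XO and 12.5 ± 0.682 FPKM in XX animals, and hmg-5, of the mitochondrial HMG type, at 86.5 ± 8.30 FPKM in XO and 15.1 ± 1.08 FPKM in XX animals (SD, n = 3 and 4). All 10 chaperone and exchange genes were higher (median 1.70), led by rba-1 with a log2 difference of 2.65 and lin-53 with 2.50, both histone-binding proteins of the RbAp family. Of 8 heterochromatin genes 7 were higher (median 1.51), led by lin-65 at 1.94 and met-2 at 1.88, a histone H3 methyltransferase. The variant core histones were split, with 5 higher and 3 lower of 8. There cpar-1, a histone H3 variant, averaged 75.6 ± 18.2 FPKM in XO and 5.78 ± 1.18 FPKM in XX young adults (SD, n = 3 and 4). The H2A.Z gene htz-1 averaged 748 ± 148 FPKM in XO and 160.3 ± 5.01 FPKM in XX young adults (SD, n = 3 and 4). The H3 variants his-70, at 3.70 ± 3.79 FPKM in XO and 105 ± 11.02 FPKM in XX young adults, and his-71, at 58.0 ± 8.63 FPKM in XO and 165 ± 32.0 FPKM in XX young adults, were lower (SD, n = 3 and 4). Each gene named here passed limma, with adjusted p of 6.4e-04 for his-70 and below that for the others.

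The 4 genes lower in XO larvae at L3 were hmg-3 (-1.02), asfl-1 (-1.06), ssl-1 (-1.01) and lin-65 (-0.86), with limma adjusted p between 0.0206 and 0.0456. The count was 14 lower and 1 higher without XO L3 replicate 1, none lower without XX L3 replicate 1, and none lower with the 6 L3 libraries alone. Between stages in XO hermaphrodites the largest rises in adults were cpar-1 (4.94), asfl-1, a histone chaperone (3.79), hmg-3 (2.91) and chaf-1 (2.63). hmg-11 fell in adults of both kinds, with differences of -2.14 in XO and -1.87 in XX animals, as did hpl-1, an HP1 gene, with -0.95 in XO and -0.91 in XX animals. Each of these passed limma, with adjusted p of 0.00586 for hpl-1 in XX males and below that for the rest. These lists share libraries with the members. Germline markers moved the same way as most called list genes in young adults, at L3 and across XO stages. Across XX stages they did not, with 1 of 8 germline markers higher and 0 lower, against 5 list genes higher and 16 lower. The part of germline cells in these counts was not tested.

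**Figure D5:**
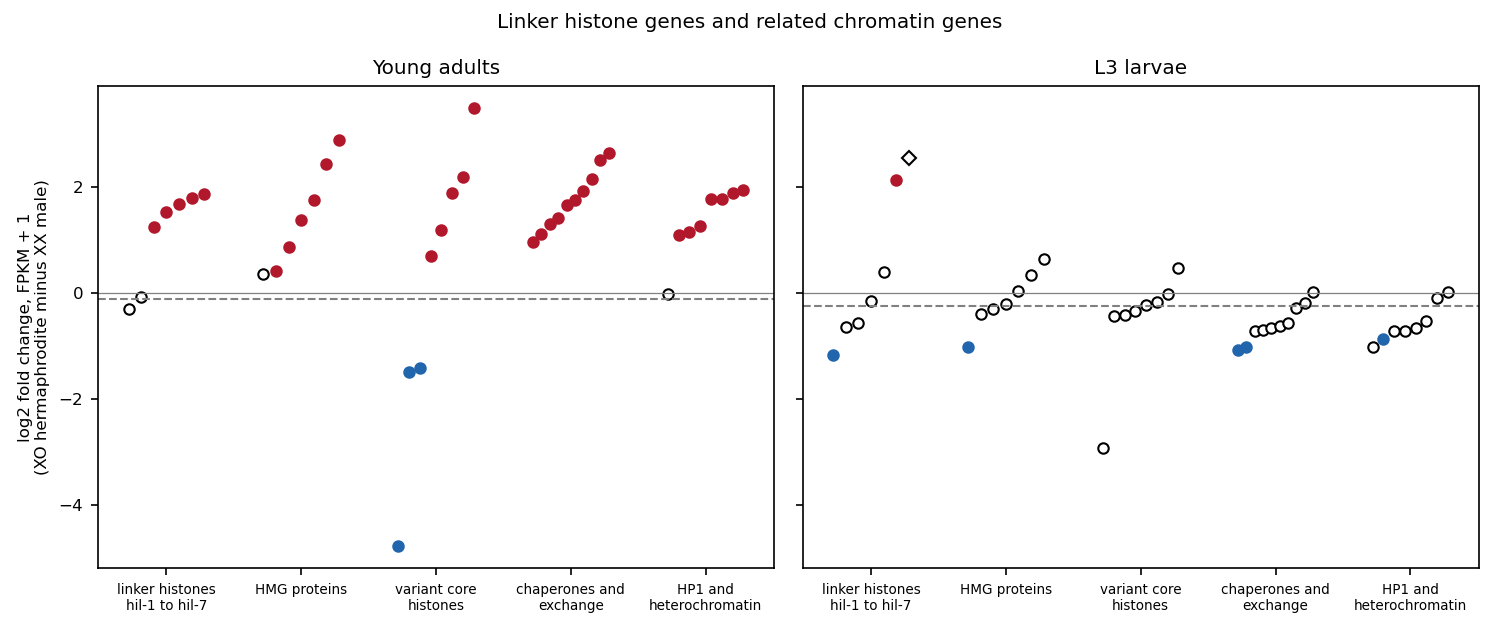
Difference between XO hermaphrodites and XX males in log2(FPKM + 1) for each member and each gene of the 4 chromatin lists, in young adults (left) and L3 larvae (right), with the median of all tested genes as a dashed line; red points passed limma at 0.05 as higher in XO hermaphrodites, blue as lower, open circles did not pass, and the diamond is hil-7 at L3, without a test. In young adults 28 of 33 list genes passed as higher in XO hermaphrodites and the median of all genes is -0.11, and at L3 none passed as higher.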

How the data were processed

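Whole worms were profiled by stranded poly(A) RNA sequencing, per the labels' protocols. The deposited values are FPKM per gene in each library, per the file headers, in a single table. The submitters' processing notes name Cufflinks 2.2.0. The aligner, annotation and build were not given in the sources used, and no coordinates are printed. All 14 value columns matched a sample by name, and the library labelled as a reverted mutant was left out of every fit. Replicate numbers are those of the sample titles, and the column headers number some XO young adult libraries otherwise. Depth is not recorded, only relative steps. Of 20417 rows 6 repeated others. Empty genes numbered 22, and 13 more held numbers for XX young adults alone, and whether other settings made those columns is unknown.

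Values were tested as log2(FPKM + 1), which understates changes where levels are low. A minimum mean of 1 FPKM over the 13 libraries was required, and all 7 members passed. limma 3.58.1 in R 4.3.3 (trend, 4 group means, Benjamini-Hochberg over 14628 genes, threshold 0.05) gave 5 comparisons, tested first on simulated data. Python 3.11.15 with pandas 2.3.3 and matplotlib 3.10.9 prepared tables and figures. Nothing in the labels says that replicates were separate cultures, so p-values may measure technical spread only. Members, lists and tests were chosen with earlier results of these data known. Genes eligible to be named were all members, his-24, up to 2 called genes per list, direction and comparison with the largest change, and the 3 genes most correlated with each member. Symbols are those of the table, and 5 list or marker genes were matched by identifier. A planned comparison of protein sequences was not run. No pairing was taken from replicate numbers, as the closing section describes.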

Additional observations from a re-analysis of the deposited data

Results flagged for a closer look

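For 5 members the difference between XO hermaphrodites and XX males was itself different in young adults and in L3 larvae, by the interaction test in limma, in which 32.6% of all genes were above zero and 23.9% below. The young adult difference minus the L3 difference, in log2(FPKM + 1), was -2.42 for hil-1, 1.13 for hil-2, 2.01 for hil-4, 2.32 for hil-5 and 2.96 for hil-6. In hil-1 the difference was -0.30 in young adults and 2.12 at L3. In hil-4 and hil-5 it was 1.86 and 1.68 in young adults and -0.15 and -0.64 at L3. In hil-6 it was 1.79 in young adults and -1.17 at L3. In hil-2 it was 1.53 in young adults and 0.41 at L3. The hil-2 value is the least stable of these, with a range of 0.43 to 1.77 over the alternatives and its call lost in 10 of 25 of them. Because hil-6 met the minimum mean mainly through XO young adults, that filter favoured its place in the count. The L3 differences of hil-1 and hil-6 did not pass in a fit to the L3 libraries alone (limma adjusted p = 0.273 and 0.278).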

How the results depend on the processing

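For single members 405 values under other settings and 256 without 1 library kept direction and call, or moved by less than 1 SD for the hil-7 values with no test. Under other settings 12 changed sign, 14 lost a call, 5 gained one and 7 untested values moved further. Without 1 library 4 changed sign, 12 lost a call and 1 gained one. The counts of kept values include hil-7 values from the L3 libraries that chose it, which are no check on that choice. The young adult calls of hil-2 (1.16 to 1.94), hil-4 (1.49 to 2.51), hil-5 (1.31 to 2.37), hil-6 (1.504 to 3.98) and hil-7 (0.90 to 1.63) held in every setting that tested them. The cause of the changes below was not tested. The count of members called at L3, 2, was 1 with a minimum mean of 5 FPKM (hil-6 was then not tested), median ratio scaling, quantile normalization, array weights or an adjusted p under 0.01, 1 to 2 without single libraries, and 0 with only the L3 libraries, where 1 gene of all tested was called higher and 2 lower. Of the related chromatin genes at L3, 0 were lower with only the L3 libraries, and without XO or XX L3 replicate 1, settings chosen after seeing the data, 0 to 14 were lower and 0 to 1 higher. The differences that changed sign had not passed limma in the reported fit, and of their turned values hil-3 under array weights passed: hil-1 in young adults was 0.020 (common FPKM sum), 0.38 (quantile) and 0.17 (array weights), and hil-3 in young adults was 0.32 (common sum) and 0.49 (array weights, limma adjusted p = 0.0201), with -0.31 to 0.28 without single libraries. hil-4 at L3 was 0.18 (upper quartile), 0.022 (median ratio) and 0.20 (array weights), with -0.42 to 0.30 without single libraries. hil-2 across XO stages was 0.30 (common sum), hil-5 across XX stages 0.26 (median ratio), and the hil-3 interaction -0.21 (upper quartile).

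Scaling moved the all-gene split. In young adults 4964 were higher and 4875 lower, against 4209 and 6055 (upper quartile) and 5826 and 3630 (common sum). At L3 185 and 631 became 620 and 422 (upper quartile), 330 and 653 (median ratio), 146 and 1775 (common sum) and 391 and 312 (quantile). Across XO stages 4936 and 4162 became 3372 and 6468 (upper quartile) and 6431 and 2368 (common sum), across XX stages 3174 and 4171 became 4407 and 2581 (median ratio), and for the interaction 4774 and 3498 became 3424 and 5419 (upper quartile) and 5971 and 2410 (common sum).

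Deviations of same-numbered libraries correlated at 0.047 to 0.298 in young adults and below 0 at L3. In no comparison was every pair over 0.1, so no pairing was assumed. With the replicate block and only the groups compared, 5 members were called in young adults (76.9% of all genes), 0 at L3 (0.00684%), 5 across XO stages (52.6%) and 3 across XX stages (44.6%). With only the groups compared and no block the counts were 5, 0, 5 and 4 (76.3%, 0.0205%, 59.3% and 52.5% of all genes), so the L3 count was 0 before the block was added. The interaction with the block called 4 (53.6%). The hil-3 difference in young adults was then 0.0015 and the hil-2 interaction 1.06 (limma adjusted p = 0.0596). As a hint from the data and not the design, libraries correlated best with their own number in 6 of 7 young adult, 0 of 6 L3, 0 of 6 XO stage and 2 of 7 XX stage cases. By the numbers of the sample titles, used throughout, XX young adult replicate 4 had no same-numbered library in the other groups and could not match. Every young adult library that could match by title number therefore did. In the column headers XO young adult replicates 2 and 3 are numbered 3 and 4, and number 2 is the reverted library. Pairs and blocks by header number would differ and were not tested. Low relative depth at L3, 0.224 for the shallowest, limits low genes such as hil-6 most, and FPKM gives no counting error.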

Other observations

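The library of strain TY2205 that the labels describe as reverted and not used had young adult values of 182 FPKM for hil-2, 45.1 FPKM for hil-3, 480.0 FPKM for hil-4 and 517 FPKM for hil-5. It had 2.36 FPKM for hil-1, 4.04 FPKM for hil-6, 25.3 FPKM for hil-7 and 174 FPKM for his-24. A further gene of the family name, hil-8, had 1.07 to 1.45 FPKM in XO young adults, 1.35 to 3.39 FPKM in XX young adults, a listing at 0 in all XO L3 libraries and at most 0.517 FPKM in XX L3 larvae. It did not meet the minimum mean for the test, and the counts, sums and shares above leave it out.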
